A study of Mus musculus with 6 samples.

Results

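The carriers described here are the membrane transporters of sugars, monocarboxylates, vitamins, organic ions, thyroid hormones and nucleosides. They were taken by gene symbol, as every Slc2a, Slc5a, Slc16a, Slc19a, Slc22a, Slc28a, Slc29a and Slco gene listed in the files, which gave 91 of 24421 genes. They were compared between endothelial cells sorted from glioma and endothelial cells sorted from normal brain. The 3 glioma libraries came from C57BL/6 mice 3 weeks after injection of GL26l glioma cells into the brain, and the 3 normal libraries from normal brain of the same strain. No transgene, treatment, age or sex is named for either group, and the sources used here do not give the sorting markers. The tumours came from a single injected line. The RNA sets of each group are called independent, but no label ties a set to an animal. The p-values therefore reflect only how far these libraries spread.

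Brain endothelium forms the blood-brain barrier, in which tight junctions close the path between cells, so that polar nutrients and hormones have to pass through carriers in the endothelial membranes. The GLUT carriers of the Slc2a family let hexoses move down their gradient, and the Slc5a carriers couple their substrates to sodium. Slc16a carriers move lactate, ketone bodies or thyroid hormone. The Slc22a and Slco families, known as OAT, OCT and OATP carriers, take up organic ions, conjugated steroids, drugs and thyroid hormones. Slc19a carriers bring in folate and thiamine, and Slc28a and Slc29a carriers move nucleosides.

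All values are on the deposited log2(x + 1) scale, in which the highest gene of every library stands at 20.85. The 3′ tag method reads each transcript at its end, so levels of different genes were set side by side without a length correction. A gene listed at 0 had no value above 0 in that library, and the lowest value above 0 differs between libraries, from 0.42 to 5.22 in glioma and from 0.22 to 7.43 in normal libraries. Genes above 0 numbered 10013 to 13108 in glioma and 7446 to 13072 in normal libraries, the lowest being normal library 1. Sequencing depth is unknown. Over 5880 genes with a value above 0 in every library, normal libraries 2 and 3 correlated at a Pearson's r of 0.97, against 0.58 and 0.60 between normal library 1 and that pair and 0.54 to 0.75 among the glioma libraries. Between the groups r ran from 0.56 to 0.82. Glioma library 2 correlated at 0.78 and 0.82 with normal libraries 2 and 3, above its 0.67 and 0.75 with glioma libraries 1 and 3. Normal library 1 correlated at 0.66 and 0.67 with glioma libraries 1 and 2, above its values within its group, and at 0.56 with glioma library 3. By this measure the libraries did not sort fully by group. Such an r runs across genes and not across replicates. Normal library 1 and glioma library 1 stood apart from the rest of their groups for several carriers, so results that rest on them are also given without them.

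The sorted cells carried the markers of endothelium. All 8 endothelial markers examined were above 0 in each library, and their summed level was 17.04 to 17.99 in glioma and 17.94 to 18.61 in normal libraries, on the log2 scale. Red cell markers were also abundant. The 5 erythroid genes summed to 17.92, 15.69 and 13.28 in glioma libraries 1, 2 and 3, against 12.99, 15.18 and 14.97 in normal libraries 1, 2 and 3. Glioma library 1 also had 6 of 6 fibroblast markers above 0 and the highest neuronal level (12.81, against at most 9.25 elsewhere), and the microglia and macrophage list was highest in glioma library 3 (12.73, against at most 11.00 elsewhere). Other lists were present in both groups. The astrocyte list summed to 11.80 to 13.88 in glioma and 12.89 to 13.55 in normal libraries. For pericytes and smooth muscle the sums were 13.22 to 13.71 in glioma and 12.03 to 14.11 in normal libraries. The oligodendrocyte lineage list summed to 9.74 to 10.87 in glioma and 9.37 to 11.73 in normal libraries. In these bulk samples, fewer cells of a type and less RNA per cell cannot be told apart.

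Of the 91 carrier genes, 16 were above 0 in all 6 libraries, 32 were listed at 0 in all 6, and 43 were above 0 in some. A few barrier carriers held most of the carriers' summed level. Slco1c1, Slco1a4, Slco2b1, Slc22a8, Slc2a1 and Slc16a1 together held 73.7%, 87.7% and 90.1% of the summed back-transformed level of the 91 genes in glioma libraries 1, 2 and 3, against 70.1%, 89.8% and 89.0% in normal libraries 1, 2 and 3. The whole set made up 0.26%, 0.553% and 1.04% of the glioma libraries' summed values and 0.34%, 0.702% and 0.697% of the normal libraries'. Both replicate 1 libraries were the lowest of their groups in this share.

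**Figure D1:**
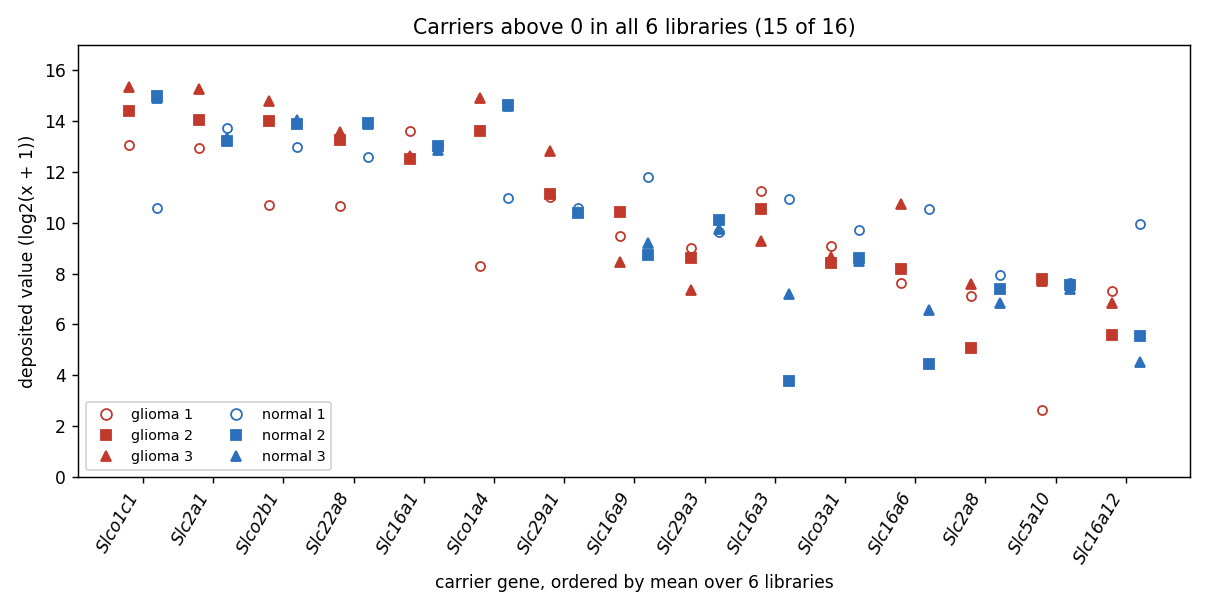
Deposited log2(x + 1) values (vertical axis) of 15 of the 16 carrier genes above 0 in all 6 libraries, ordered by mean; red symbols are the 3 glioma libraries, blue symbols the 3 normal libraries, and open circles mark replicate 1 of each group. Slco1a4 is at 8.28 in glioma library 1 and 10.99 in normal library 1, while the other 4 libraries sit between 13.61 and 14.93, and Slc29a1 and Slc29a3 are the members whose groups do not overlap.

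No carrier passed the test between the groups. Of the 42 members with enough values to be tested, 0 had a limma adjusted p under 0.05, as was so for 0.0% of the 11862 genes tested. At an unadjusted p under 0.05 the count was also 0 of 42, against 4.29% of all genes, and the smallest unadjusted p of a member was 0.0708. For 1 member, Slc29a1, each glioma value exceeded each normal value, against a share of 6.91% over all genes. For 1 member, Slc29a3, each glioma value was below each normal value, against 6.37% over all genes. These shares are not above the background. A gene entered the test when its back-transformed value reached 1 in 3 libraries or more, and 17 members with some value above 0 did not meet it.

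Fitted differences leaned to the lower side. They were below 0 for 30 of the 42 members (48.6% of all genes were below 0), with a median of -0.47, against 0.05 over all genes. Of those 30 members, 18 were listed at 0 in at least 1 glioma library, and many of these also in a normal library. The share over all genes was not taken. A 0 in glioma makes such a difference larger through the step to the lowest nonzero value, and a 0 in normal libraries makes it smaller. For Slco1a5, at 0 in some libraries of both groups, the difference was -3.90, and -7.08 without normal library 1. The part of these zeros in the lean was not tested. With every value raised to a shared floor of 7.43, the members' median was -0.03 and that of all genes 0.0. Without normal library 1, differences below 0 made up 59.5% of the members and 59.5% of all genes, with medians of -0.61 over the members and -0.35 over all genes. Without glioma library 1 the medians were -0.41 over the members and 0.10 over all genes. Of the 16 members above 0 in all 6 libraries, 11 had a difference below 0, against 58.1% of all such genes.

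Counts rose when the replicate 1 libraries were left out, and so did those of all genes. Without normal library 1, 5 members had glioma libraries wholly higher (14.7% of all genes did), namely Slc16a3, Slc16a6, Slc16a12, Slc29a1 and Slco2a1. In that comparison 10 were wholly lower (20.7% of all genes), among them Slc22a8, Slc29a3 and Slc19a2, and 5 had an unadjusted limma p under 0.05 (10.2% of all genes). Without glioma library 1, 5 were wholly higher (15.0% of all genes), 2 wholly lower (12.1%) and 2 had an unadjusted p under 0.05 (5.74%). Without both, 10 were wholly higher (24.6%), 15 wholly lower (30.9%) and 9 had an unadjusted p under 0.05 (20.6%). None passed the limma adjusted threshold in any of these comparisons, in which 0.0% of all genes did.

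**Figure D2:**
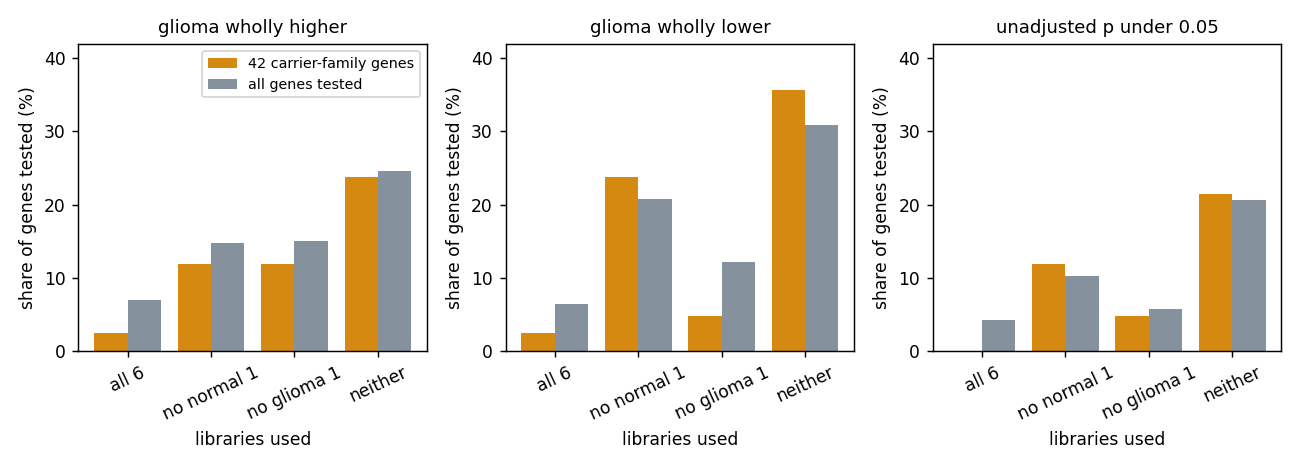
Share of genes tested (vertical axis, percent) whose glioma libraries lie wholly above, wholly below, or reach an unadjusted limma p under 0.05 against the normal libraries, for the 42 tested carrier-family genes (orange) and all 11862 genes (grey), with all 6 libraries and without the replicate 1 libraries. With all 6 libraries the carriers stand at 2.38%, 2.38% and 0.0%, and all genes at 6.91%, 6.37% and 4.29%.

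The equilibrative nucleoside carriers gave the members whose groups did not overlap, and they lay on opposite sides. Slc29a1 encodes ENT1, the plasma membrane carrier that takes up adenosine (chromosome 17, 45585200 to 45599606, minus strand, mm10). It stood at 11.01, 11.12 and 12.81 in glioma libraries 1, 2 and 3, against 10.59, 10.37 and 10.43 in normal libraries 1, 2 and 3. All glioma values were above all normal values, but glioma library 3 was set apart from the other two. The difference was 1.18 (SE 0.58, higher in 3 of 3 glioma libraries), which did not pass (limma adjusted p = 0.875), and it was 0.60 without glioma library 3.

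Slc29a3 encodes ENT3, a nucleoside carrier of lysosomes (chromosome 10, 60712072 to 60752794, minus strand). It stood at 9.00, 8.61 and 7.34 in glioma libraries, against 9.64, 10.11 and 9.77 in normal libraries. Here glioma library 3 was the lowest, and the normal libraries lay close together. The difference was -1.52 (SE 0.74, lower in 3 of 3 glioma libraries, limma adjusted p = 0.875). Within the Slc29a family, Slc29a1 made up 79.5%, 85.1% and 97.2% of the summed level in glioma libraries, against 58.4%, 54.5% and 61.1% in normal libraries. The level of Slc29a1 minus that of Slc29a3 in the same library was 2.02, 2.51 and 5.47 in glioma, against 0.95, 0.26 and 0.66 in normal libraries. This contrast was chosen after the values were seen and is a description. Of the 3′-end windows of Slc29a3, 4.61% were shared with Cep162, so a small part of its reads could be assigned to either gene.

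The 250 bases before the RefSeq start of both genes are shown because the pair gave the non-overlapping members. Sequences are RefSeq promoter windows of GRCm38.p6, the assembly behind mm10, printed 5′ to 3′ on the gene's strand. Capitals mark matches on either strand to ACGTG or GCGTG, the core of the hypoxia response element, and to CTTTG, the core of the TCF/LEF site at the end of the Wnt pathway. Each hypoxia core can overlap its own reverse complement.
Slc29a1 chr17:45599619-45599868: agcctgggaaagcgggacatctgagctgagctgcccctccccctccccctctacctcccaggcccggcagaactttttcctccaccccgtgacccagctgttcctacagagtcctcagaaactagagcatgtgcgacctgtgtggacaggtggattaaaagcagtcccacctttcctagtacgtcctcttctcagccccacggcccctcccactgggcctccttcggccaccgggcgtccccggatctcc
Slc29a3 chr10:60752783-60753032: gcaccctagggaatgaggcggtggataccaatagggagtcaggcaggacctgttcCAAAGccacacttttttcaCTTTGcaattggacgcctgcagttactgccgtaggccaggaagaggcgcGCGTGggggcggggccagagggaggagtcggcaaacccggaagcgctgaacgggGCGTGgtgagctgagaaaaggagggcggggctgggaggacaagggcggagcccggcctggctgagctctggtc
The Slc29a1 window shown, the outermost of 8 in the table, held none of these letters, but its other 7 windows each held at least 1 match, with ACGTG in 3, GCGTG in 3 and CTTTG in 5. The single window of Slc29a3 held GCGTG at 2 places and CTTTG at 2 places. Over 32851 windows of this length in the promoter table, ACGTG was found in 16.6%, GCGTG in 28.2% and CTTTG in 48.6%. A match is a string of letters and not a known site.

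Slc29a4, the monoamine carrier PMAT, was at 4.60, 0 and 5.48 in glioma libraries, against 8.24, 0 and 2.12 in normal libraries, and did not separate the groups. Of the concentrative, sodium-driven nucleoside carriers, Slc28a2 was listed at 0 in all glioma libraries and at 0, 6.91 and 6.28 in normal libraries 1, 2 and 3. Its groups overlap through normal library 1, and 67.4% of its 3′-end windows also occur in Gm14085, which was listed at 0.58 in normal library 3 and at 0 elsewhere. Slc28a3 was at 0, 3.82 and 5.22 in glioma, against 7.43, 3.42 and 0.22 in normal libraries, all of them low values. The value of 7.43 is the lowest above 0 that normal library 1 can take.

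Among the hexose carriers, Slc2a1 (GLUT1, which carries glucose into the brain; chromosome 4, 119108711 to 119137983, plus strand) dominated in both groups. Slc2a1 was at 12.93, 14.03 and 15.26 in glioma libraries 1, 2 and 3, against 13.74, 13.22 and 13.34 in normal libraries 1, 2 and 3. Glioma libraries 2 and 3 were above every normal library and glioma library 1 was below every one, so the groups overlap. It ranked 325, 101 and 30 among all genes in the glioma libraries, against 136, 242 and 210 in the normal libraries. The difference was 0.64 (SE 0.63, limma adjusted p = 0.875), and it was 1.21 without glioma library 1 and 0.05 without glioma library 3. In glioma library 3, 7 of 9 microglia and macrophage markers were above 0, against 8 in glioma library 1 and 2 in glioma library 2. Their summed level ranged from 8.00 to 12.73 in glioma and from 6.80 to 11.00 in normal libraries, with no marker at 0 in all 6, and their part in the Slc2a1 value was not tested. Slc2a1 made up 83.2% to 98.1% of the summed level of its family in glioma and 90.2% to 93.1% in normal libraries.

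Slc2a3 (GLUT3, the main neuronal glucose carrier) was low, at 8.04, 5.16 and 0 in glioma libraries, against 0, 3.42 and 0 in normal libraries. Its highest value fell in glioma library 1, where neuronal markers were also highest. All 7 neuronal markers were found in at least 1 library, and their summed level ranged from 5.89 to 12.81 in glioma and from 8.94 to 9.25 in normal libraries. Their part in the Slc2a3 value was not tested. Slc2a8 (GLUT8, a hexose carrier of internal membranes) was at 7.13, 5.06 and 7.58 in glioma, against 7.93, 7.41 and 6.83 in normal libraries, with a difference of -0.80 (SE 1.52, limma adjusted p = 0.923) that was -0.03 without glioma library 2 and -0.12 with the shared floor. Of the 13 genes of the Slc2a group, 8 were tested and 2 were listed at 0 throughout. The hepatic carrier Slc2a2 was one of those at 0. The group also includes Slc2a4rg-ps, a pseudogene that matches by symbol and encodes no carrier.

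Sodium-coupled Slc5a carriers were sparse. Of 13 members, 7 were at 0 in all libraries and 3 were tested. Slc5a10, a sodium-coupled mannose and fructose carrier known from kidney, was at 2.62, 7.79 and 7.69 in glioma libraries, against 7.61, 7.56 and 7.40 in normal libraries, so that 5 libraries lay close together and glioma library 1 far below. Its difference was -1.49 (SE 1.91, limma adjusted p = 0.890) and 0.22 without glioma library 1. Its 3′ end lies against Grap on the opposite strand, which stood at 7.13, 10.69 and 10.61 in glioma and 9.32, 9.97 and 10.35 in normal libraries. The annotated genes overlap only from 61672781 to 61672784 of chromosome 11, where they meet end to end. Use of strand in counting is not given, and whether reads of Grap enter the Slc5a10 values was not tested. Grap too was lowest in glioma library 1.

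Slc5a6, the carrier of biotin and pantothenate at the barrier, was at 5.69, 7.49 and 0 in glioma, against 0, 8.24 and 8.83 in normal libraries. Slc5a3, the sodium and myo-inositol carrier, was at 8.20, 7.86 and 0 in glioma, against 0, 0 and 5.49 in normal libraries. Slc5a3 lies inside Mrps6 on the same strand, though 0.0% of its 3′-end windows recur in transcripts of another gene. How reads in that overlap were assigned is not known. Of the 3′-end windows of Slc5a6, 12.9% recur in pseudogenes, so its value is uncertain. Neither Slc5a6 nor Slc5a3 separated the groups.

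Monocarboxylate carriers of the Slc16a family ranged from even to widely spread. Slc16a1, which encodes MCT1 for lactate, pyruvate and ketone bodies (chromosome 3, 104638668 to 104658462, plus strand), was at 13.62, 12.50 and 12.64 in glioma libraries, against 13.03, 13.03 and 12.87 in normal libraries. All 6 libraries lay within a narrow band, and the difference of -0.06 (SE 0.46, limma adjusted p = 0.988) was smaller than the spread of the glioma group. Red cells also use MCT1. The highest Slc16a1 value stood in glioma library 1, where the erythroid list was highest, with 5 of 5 markers above 0. The erythroid sum ranged from 13.28 to 17.92 in glioma and from 12.99 to 15.18 in normal libraries, and its part in Slc16a1 was not tested.

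Slc16a3, which encodes MCT4, the lactate exporter of glycolytic cells and a known target of hypoxia signalling (chromosome 11, 120948480 to 120960868, plus strand), had the largest positive difference among the members above 0 in all libraries. Its values were 11.26, 10.54 and 9.29 in glioma libraries 1, 2 and 3, against 10.95, 3.77 and 7.21 in normal libraries 1, 2 and 3. Normal library 1 was as high as the glioma libraries, and normal libraries 2 and 3 were below all of them, so the groups overlap. The difference was 3.05 (SE 1.62, limma adjusted p = 0.875), and it was 4.87 without normal library 1, 1.28 without normal library 2 and 1.76 with the shared floor, none of which passed. Slc16a3 made up 13.9%, 13.0% and 5.59% of the summed Slc16a level in glioma, against 11.4%, 0.0969% and 1.13% in normal libraries.

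Slc2a1 and Slc16a3 stand at the entry of glucose and the exit of lactate, and the promoter windows of both held hypoxia core letters.
Slc2a1 chr4:119108495-119108744: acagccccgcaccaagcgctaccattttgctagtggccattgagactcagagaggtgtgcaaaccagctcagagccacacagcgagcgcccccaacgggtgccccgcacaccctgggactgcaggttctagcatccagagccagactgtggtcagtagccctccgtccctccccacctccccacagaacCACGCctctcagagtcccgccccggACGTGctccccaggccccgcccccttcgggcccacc
Slc16a3 chr11:120948817-120949066: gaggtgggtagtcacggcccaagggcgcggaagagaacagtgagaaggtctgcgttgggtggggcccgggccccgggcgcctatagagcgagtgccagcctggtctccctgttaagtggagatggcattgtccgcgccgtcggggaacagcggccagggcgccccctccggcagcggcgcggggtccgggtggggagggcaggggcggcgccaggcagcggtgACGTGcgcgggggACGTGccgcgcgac
The Slc2a1 window held 1 ACGTG and 1 GCGTG, with GCGTG read on the opposite strand, and the Slc16a3 window held ACGTG at 2 places. The windows follow RefSeq starts, and that of Slc16a3 lies inside the gene as GENCODE places it, which starts at 120948480. Among windows of the 16 members above 0 in all libraries, some of which have several starts, 7 of 23 held ACGTG and 8 of 23 held GCGTG, beside the shares of 16.6% and 28.2% given for all windows. The letters were thus not particular to this pair. The window of Slc16a1 held ACGTG at 2 places and GCGTG at 2 places, and that of Slc16a12 held ACGTG at 2 places. Fitted differences of these genes were -0.06 and -0.10. A link between the letters and the levels was not tested.

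Slc16a6 and Slc16a12 followed a course like that of Slc16a3, with normal library 1 near or above the glioma libraries. Slc16a6 (MCT7) was at 7.64, 8.19 and 10.75 in glioma, against 10.53, 4.45 and 6.57 in normal libraries. Its difference was 1.68 (SE 1.67, limma adjusted p = 0.875). It was 3.35 without normal library 1, 0.73 without glioma library 3, 0.31 without normal library 2 and 0.40 with the shared floor. Slc16a12 (MCT12, a creatine carrier) was at 7.30, 5.60 and 6.84 in glioma, against 9.97, 5.54 and 4.52 in normal libraries. With normal library 1 its difference was -0.10 (SE 1.99, limma adjusted p = 0.995) and without it 1.55, and it was also above 0 without glioma library 2, at 0.39. Slc16a9, which carries carnitine in human cells, was at 9.49, 10.41 and 8.44 in glioma, against 11.79, 8.72 and 9.21 in normal libraries. Its difference of -0.46 (SE 0.93, limma adjusted p = 0.931) likewise became 0.48 without normal library 1. The 3′ end of Slc16a6 overlaps Amz2 on the opposite strand.

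Slc16a4, a family member without an assigned substrate, was at 0, 8.76 and 9.31 in glioma libraries, against 7.43, 7.35 and 8.50 in normal libraries. It was at 0 in glioma library 1 and higher in glioma libraries 2 and 3 than in any normal library. Of the 14 Slc16a genes, 8 were tested, 2 with a difference above 0 and 6 below, and 4 were at 0 in all libraries, among them Slc16a7 (MCT2).

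**Figure D3:**
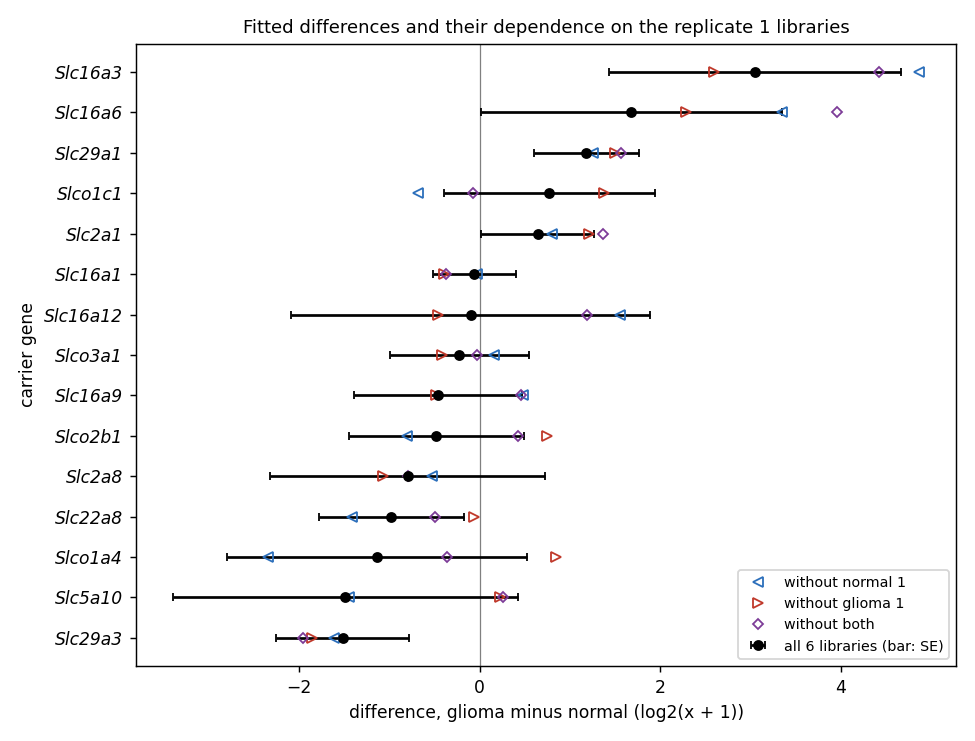
Fitted difference in log2(x + 1) units, taken as glioma minus normal (horizontal axis), for 15 of the 16 carriers above 0 in all libraries; black points with bars give the value and its SE over all 6 libraries, and open symbols the value without normal library 1, without glioma library 1 or without both. Slc16a3 lies at 3.05 with all libraries and 4.87 without normal library 1, and Slco1a4 lies at -1.14 with all libraries, -2.35 without normal library 1 and 0.85 without glioma library 1.

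The organic anion polypeptides of the Slco family held the largest share of the carrier transcripts in 4 of the 6 libraries. Slco genes made up 26.4%, 54.0% and 57.7% of the summed level of the 91 genes in glioma libraries 1, 2 and 3, against 25.2%, 63.0% and 62.4% in normal libraries 1, 2 and 3. The replicate 1 library of each group had less than the others of its group. Without that library, the remaining glioma libraries were below the remaining normal libraries in this share. In the replicate 1 libraries the largest share belonged to Slc16a genes, at 40.0% in glioma and 30.4% in normal.

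**Figure D4:**
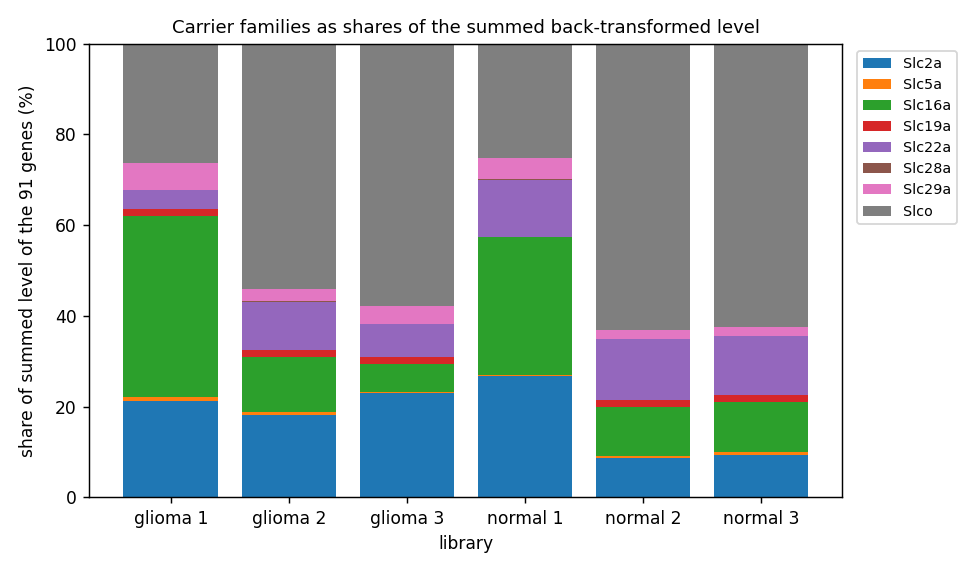
Share of each carrier family in the summed back-transformed level of the 91 genes (vertical axis, percent) in each of the 3 glioma and 3 normal libraries. The Slco share (grey) is 26.4% in glioma library 1 and 25.2% in normal library 1, and 54.0% to 63.0% in the other 4 libraries.

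Slco1c1 encodes OATP1C1, the thyroxine carrier of brain endothelium (chromosome 6, 141524368 to 141570177, plus strand). Slco1c1 was at 13.06, 14.39 and 15.36 in glioma libraries 1, 2 and 3, against 10.58, 15.00 and 14.91 in normal libraries 1, 2 and 3. The normal values of libraries 2 and 3 lay inside the glioma range and that of normal library 1 well below it. It ranked 285, 73 and 28 among all genes in glioma, against 2017, 38 and 42 in normal libraries. The difference was 0.77 (SE 1.17, limma adjusted p = 0.899), -0.69 without normal library 1 and -0.08 without both replicate 1 libraries.

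Slco1a4, a carrier of amphipathic anions and drugs in brain endothelium, lies in the same gene cluster (141805440 to 141856199, minus strand). It was at 8.28, 13.61 and 14.93 in glioma libraries, against 10.99, 14.65 and 14.60 in normal libraries. The lowest value of each group was again its replicate 1 library. The difference was -1.14 (SE 1.66, limma adjusted p = 0.897), and it was 0.85 without glioma library 1 and -0.36 without both. Slco1c1 exceeded Slco1a4 by 4.78, 0.78 and 0.43 in glioma libraries, and by -0.42, 0.35 and 0.31 in normal libraries. The 2 genes thus lay within 1 log2 unit of each other in every library other than glioma library 1, in which Slco1a4 alone was far down.

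Both neighbours are shown by their promoter windows, since they lie in 1 cluster and both stood at their groups' lowest level in the replicate 1 libraries.
Slco1c1 chr6:141524104-141524353: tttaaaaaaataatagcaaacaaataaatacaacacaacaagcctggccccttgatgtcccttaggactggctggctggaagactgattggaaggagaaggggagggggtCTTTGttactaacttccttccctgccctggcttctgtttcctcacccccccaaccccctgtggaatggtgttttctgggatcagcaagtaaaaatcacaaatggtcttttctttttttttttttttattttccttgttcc
Slco1a4 chr6:141856221-141856470: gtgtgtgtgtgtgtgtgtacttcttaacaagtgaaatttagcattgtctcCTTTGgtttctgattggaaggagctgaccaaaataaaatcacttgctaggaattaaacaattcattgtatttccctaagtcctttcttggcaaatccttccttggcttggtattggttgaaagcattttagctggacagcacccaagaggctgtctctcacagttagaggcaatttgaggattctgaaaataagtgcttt
Each window held CTTTG at 1 place and neither hypoxia core. Neither held a CG dinucleotide, while 92.1% of all windows held at least 1, and the windows of Slc2a1 and Slc16a3 held 13 and 29.

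The other genes of the cluster were lower. Slco1b2, the hepatic carrier, was above 0 in 1 library, at 3.46 in normal library 3. Slco1a1 was at 5.38, 4.59 and 0 in glioma, against 0, 7.24 and 7.76 in normal libraries. Slco1a5 was at 7.37, 0 and 0 in glioma, against 0, 9.52 and 9.54 in normal libraries. Both stood in normal libraries 2 and 3 above all glioma values and were listed at 0 in normal library 1, so the groups overlap. Slco1a6 was at 6.79, 6.05 and 0 in glioma, against 7.97, 5.58 and 4.95 in normal libraries. These paralogues share little sequence at the ends that the method reads. Of the 50-base windows in the last 600 bases, 0.907% of Slco1a5 recurred in Slco1a4, and no other Slco1 gene shared any.

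Slco2b1, a broad organic anion carrier that the barrier also uses, lies on chromosome 7 (99657804 to 99711340, minus strand). It was at 10.70, 14.00 and 14.79 in glioma libraries, against 12.99, 13.90 and 14.04 in normal libraries. Glioma library 1 was lowest and glioma library 3 highest, with the normal libraries between. The difference was -0.48 (SE 0.97, limma adjusted p = 0.928), and 0.75 without glioma library 1. Slco3a1 was even across libraries, at 9.10, 8.40 and 8.64 in glioma, against 9.72, 8.60 and 8.50 in normal libraries, with a difference of -0.23 (SE 0.77, limma adjusted p = 0.961). Slco2a1, the prostaglandin carrier that removes these mediators, was at 7.22, 6.52 and 7.10 in glioma, against 10.59, 0 and 0 in normal libraries. It was found in every glioma library, and among normal libraries in library 1 alone, where it was highest of all.

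Among the organic ion carriers, Slc22a8 was the single abundant gene. It encodes OAT3, which moves organic anions such as neurotransmitter metabolites and uraemic toxins out of the brain (chromosome 19, 8591254 to 8611835, plus strand). Slc22a8 was at 10.66, 13.25 and 13.57 in glioma libraries, against 12.59, 13.93 and 13.88 in normal libraries. Both groups had their lowest value in library 1, and without normal library 1 the glioma libraries lay wholly below. The difference was -0.98 (SE 0.80, limma adjusted p = 0.875), -1.42 without normal library 1 and -0.06 without glioma library 1. It made up 88.7% to 97.4% of the summed Slc22a level in glioma and 86.4% to 97.8% in normal libraries.

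Its neighbours were not found in these libraries. The 9 other Slc22a genes on chromosome 19, among them Slc22a6 (OAT1, the renal anion carrier), were listed at 0 in all 6 libraries. In all, 14 of the 26 Slc22a genes were at 0 throughout and 7 were tested. Slc22a8 is also expressed in choroid plexus. Of the 7 choroid plexus markers, 2 to 3 were above 0 in glioma and 0 to 5 in normal libraries, Folr1 was at 0 in all 6, and the summed level was 6.59 to 11.60 in glioma and 0 to 8.94 in normal libraries. Single markers reached 10.59 in glioma library 1 and 11.58 in glioma library 3, and all 7 were listed at 0 in normal library 1. Their part in the Slc22a8 values was not tested.

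**Figure D5:**
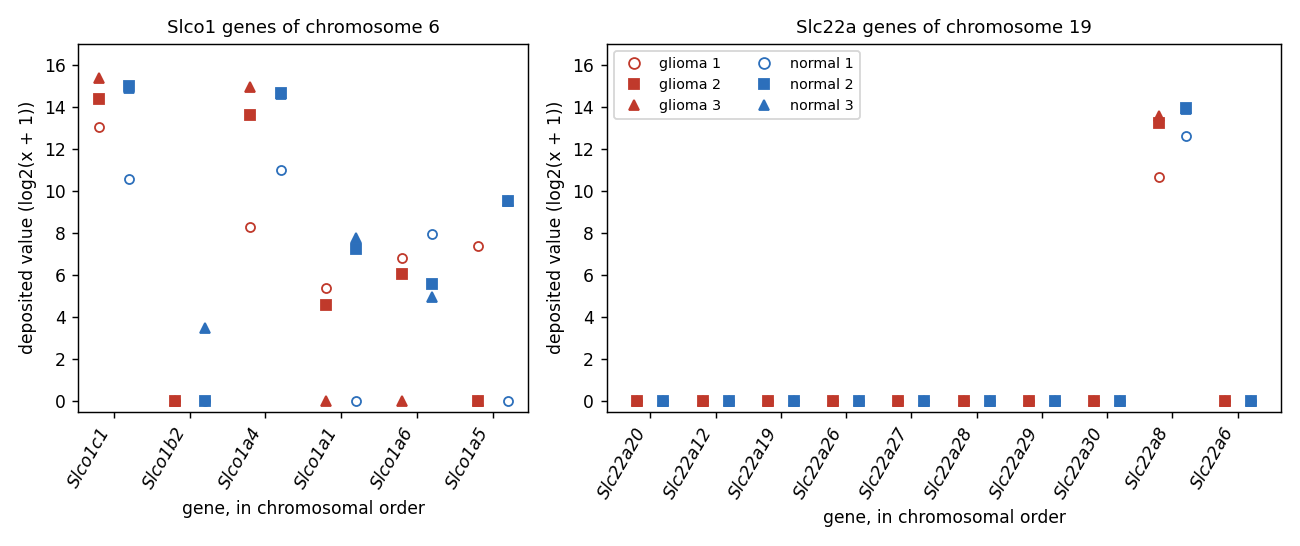
Deposited log2(x + 1) values (vertical axis) of the Slco1 genes of chromosome 6 and the Slc22a genes of chromosome 19 in chromosomal order, with glioma libraries in red, normal libraries in blue and replicate 1 as open circles. Slco1c1 and Slco1a4 reach 15.36 and 14.93, while of 10 Slc22a genes on chromosome 19 only Slc22a8 is above 0.

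Slc22a5, the carnitine carrier OCTN2, was at 2.22, 5.82 and 6.83 in glioma libraries, against 0, 7.92 and 7.39 in normal libraries. Of its 3′-end windows 70.6% are shared with Slc22a21, so its level is uncertain, and Slc22a21 itself was at 5.60, 0 and 0 in glioma, against 0, 5.48 and 4.21 in normal libraries. For Slc22a5 the groups overlap through the 0 of normal library 1, while for Slc22a21 glioma library 1 was the highest of all 6.

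Folate and thiamine carriers of the Slc19a family were all listed at 0 in normal library 1. Slc19a1, the reduced folate carrier, was at 8.75, 8.36 and 11.32 in glioma, against 0, 9.33 and 9.78 in normal libraries, so the groups overlap. Its 3′ end is covered by Col18a1 on the opposite strand, which stood at 12.02, 11.87 and 11.70 in glioma and 8.17, 9.71 and 9.60 in normal libraries, and how reads there were assigned is not known. Slc19a2, a thiamine carrier, was at 7.79, 0 and 0 in glioma, against 0, 8.91 and 8.24 in normal libraries. Slc19a3, the second thiamine carrier, was at 0, 10.28 and 7.31 in glioma, against 0, 9.33 and 9.51 in normal libraries. Neither thiamine carrier separated the groups.

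Values at 0 in single libraries recurred across the families. Of 39 members above 0 in both normal libraries 2 and 3, 18 were listed at 0 in normal library 1. That library had 7446 genes above 0 among all genes, against 11853 and 13072 in normal libraries 2 and 3. Members above 0 in all 3 libraries of a group numbered 21 in glioma and 21 in normal. In addition, 6 members were above 0 in glioma libraries only, with no value over 5.22, and 7 in normal libraries only. Shares over all genes were not taken for any of these counts, so they are not read as particular to the carriers. Of the members above 0 in normal libraries only, Slc2a6 was at 9.57 in normal library 1 and at 0 in the other 5 libraries. For the 16 members found in every library, the median SD within a group was 1.08 in glioma and 0.72 in normal libraries, against 0.88 and 0.64 over all such genes.

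Genes that work with these carriers were examined as a list of 27 drawn up by role, with earlier results of these data known. Of these, 22 were tested, 0 passed the limma adjusted threshold, and 2, Fpgs and Hk2, had an unadjusted p under 0.05 (4.29% of all genes did). The glioma libraries lay wholly below for 3 (6.37% of all genes) and wholly above for 1 (6.91% of all genes), and the median difference was -0.21, beside 0.05 over all genes. Bsg, which encodes basigin, the chaperone that brings MCT1 and MCT4 to the membrane, was at 15.68, 15.95 and 16.05 in glioma, against 16.77, 17.07 and 17.07 in normal libraries. The groups do not overlap, and the difference was -1.07 (SE 0.65, lower in 3 of 3 glioma libraries, limma adjusted p = 0.875). Fpgs, whose enzyme traps folates inside cells, was at 7.97, 9.24 and 8.95 in glioma, against 9.88, 10.49 and 10.36 in normal libraries, with a difference of -1.52 (SE 0.65, limma adjusted p = 0.875). Pdzk1, a scaffold that holds organic ion carriers at the membrane, was at 6.93, 0 and 0 in glioma, against 9.02, 7.36 and 7.26 in normal libraries. The Pdzk1 difference was -5.57, and -0.53 with the shared floor.

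For hormone and nucleoside handling, the groups overlapped. Thra, a thyroid hormone receptor, was at 7.69, 8.76 and 7.97 in glioma, against 8.69, 10.22 and 9.95 in normal libraries, with only glioma library 2 above the lowest normal value. Adk, which phosphorylates adenosine after uptake, was at 8.57, 7.42 and 7.78 in glioma, against 9.90, 7.15 and 8.73 in normal libraries. Neither gene passed the limma test over all genes.

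For hexose and lactate handling, Hk2, a hexokinase, was at 7.22, 6.05 and 10.06 in glioma and was listed at 0 in all normal libraries. It entered the test through its glioma values alone, and those of glioma libraries 1 and 2 lie below 7.43, the lowest value above 0 in normal library 1. Its difference was 7.78, and 0.88 with the shared floor. Hk1, the hexokinase that most tissues use, was at 9.99, 10.53 and 11.24 in glioma, against 9.99, 10.86 and 10.88 in normal libraries. Akr1b3, which turns glucose into sorbitol, was at 9.47, 7.86 and 6.26 in glioma, against 8.89, 7.08 and 6.29 in normal libraries. Neither hexokinase 1 nor this reductase separated the groups. Ldha, a lactate dehydrogenase subunit, was at 11.82, 11.84 and 13.19 in glioma, against 10.47, 11.97 and 12.08 in normal libraries, which overlap. Txnip, an arrestin that lowers GLUT1 at the surface, was at 11.61, 13.74 and 13.07 in glioma, against 12.09, 13.73 and 13.74 in normal libraries. Its lowest values were those of the replicate 1 libraries, as for Slco1a4 and Slc22a8.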

How the data were processed

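RNA of endothelial cells sorted from glioma (3 libraries) and from normal brain (3 libraries) was made into 3′-end sequencing libraries (Lexogen QuantSeq), per the labels' protocols. Bowtie2, edgeR and build mm10 are named without role, per the submitters' processing notes; the sources used here do not give the counting tool, strand use, annotation or normalization. The deposited values are log2, read from the values as log2(x + 1) after quantile normalization by the authors. Back-transformed and multiplied by 6, at least 99.97% of those above 0 lay within 0.02 of a whole number. Depth is therefore unknown, and no interval from counts is given.

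Groups came from the sample titles. The deposited log2 values of the 11862 genes that reached a back-transformed value of 1 in 3 libraries or more were fitted with limma 3.58.1 (R 4.3.3), using a variance prior with trend and group as the single term (4 residual degrees of freedom). Tests were two-sided, with Benjamini-Hochberg adjustment over all genes at 0.05. The procedure was tested on simulated data, built from genes above 0 in every library and with the same spread for every gene. Values at 0 and libraries that stand apart were not part of that test. Differences are glioma minus normal, with the standard error (SE).

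Members named are a set of barrier carriers whatever their result, all members above 0 in every library except 1 that is not reported here, those whose groups do not overlap, and the highest of each family; Slco1a1, Slco1a5, Slco1a6, Slco1b2, Slc22a21 and Slc2a6 were added after their values were seen. The members and lists were chosen with earlier results of these data known. Positions come from GENCODE M21 (GRCm38), which placed all 91 members. Promoter windows come from RefSeq GRCm38.p6, which matched 74 members. Transcript ends were compared by 50-base windows of the last 600 bases. Alternatives were no filter, a strict filter, a shared floor, a pseudocount of 100, library centring, no trend, a replicate block and leaving out libraries.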

Additional observations from a re-analysis of the deposited data

How the results depend on the processing

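No member passed the limma adjusted threshold under any of the 14 alternatives, where the smallest adjusted p of a member above 0 in all libraries was 0.154. Members at an unadjusted p under 0.05 numbered 0 in the reported fit and 1 with the strict filter, 1 with the shared floor and 1 with the replicate block; with 1 library left out they numbered 0 to 5. Leaving out 1 library gave 1 to 5 members wholly higher and 1 to 10 wholly lower, the highest of both without normal library 1, where all genes stood at 14.7% and 20.7%. Without both replicate 1 libraries, an alternative chosen after seeing the data, 9 members reached an unadjusted p under 0.05, 10 were wholly higher and 15 wholly lower, beside 20.6%, 24.6% and 30.9% of all genes.

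The median difference over the tested members was -0.03 with the shared floor, and -0.67 to -0.21 with 1 library left out. Signs changed for 8 of the 16 members above 0 in all libraries. With the shared floor, Slc5a10 was at 0.10, and with library centring, which shifts the median of all genes by 0.09, Slc16a1 was at 0.04. Without both replicate 1 libraries, Slc16a12 was at 1.19, Slc16a9 at 0.46, Slc5a10 at 0.26, Slco1c1 at -0.08 and Slco2b1 at 0.42. With 1 library left out, the ranges were -0.40 to 0.15 for Slc16a1, -1.17 to 1.55 for Slc16a12, -1.05 to 0.48 for Slc16a9, -2.37 to 0.22 for Slc5a10, -2.47 to 0.85 for Slco1a4, -0.69 to 1.52 for Slco1c1, -1.30 to 0.75 for Slco2b1 and -0.45 to 0.16 for Slco3a1. The cause was not tested. The other 8 members kept their direction under every alternative run, but their size moved: with 1 library left out the ranges were 0.6 to 1.5 for Slc29a1, -1.86 to -1.04 for Slc29a3, 1.28 to 4.87 for Slc16a3, 0.31 to 3.35 for Slc16a6, 0.05 to 1.21 for Slc2a1, -1.30 to -0.03 for Slc2a8 and -1.51 to -0.06 for Slc22a8.

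Replicate numbers are shared between the groups, but deviations of same-numbered libraries correlated at 0.13, 0.03 and 0.06 across 11862 genes, so the numbers were not taken to pair them. Libraries with different numbers correlated at -0.14 to 0.09. With the block, the member at an unadjusted p under 0.05 was Slc16a3, with an unchanged difference of 3.05. The block lowered the SE from 1.66 to 0.58 for Slco1a4 and from 1.17 to 0.58 for Slco1c1. It also lowered the SE from 0.80 to 0.43 for Slc22a8 and from 0.97 to 0.59 for Slco2b1. For Slc29a3, Slc2a8, Slc5a10 and Slco3a1 the SE rose. Depth is unknown, so what a value of 0 allows cannot be given.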
